A study of Mus musculus with 8 samples.

Results

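The mRNAs of the 3 Aurora kinases (Aurka, Aurkb and Aurkc), of the Aurora A activator Tpx2 and of the chromosomal passenger complex subunits Incenp, Birc5 and Cdca8 were analyzed in fully grown mouse oocytes at the germinal vesicle (GV) stage. The members were taken by gene symbol from a count table of 46078 genes. All 7 of the 7 were found, and all 7 passed the filter on low counts together with 19241 genes in all. Of these members, Aurka and Aurkb mRNAs were downregulated to 58.9% and 58.0% of the control level in oocytes lacking Cnot7 and Cnot8, whereas Aurkc mRNA was at 97.3% and was not called. The share of Aurkc in the kinase transcripts was thus higher in every KO library than in any control library. That share largely restates the ratio of Aurkc to Aurka (exact permutation test, p adjusted over 6 ratios 0.0571).

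Control oocytes came from mice that carry the Zp3-Cre transgene, and CNOT7&8 KO oocytes from mice with floxed alleles of both genes (Cnot7 fl/fl and Cnot8 fl/fl) crossed with Zp3-Cre. Both groups therefore carried Cre, which the Zp3 promoter drives in growing oocytes, so that the deletion begins during oocyte growth and the surrounding somatic cells keep both genes. Per the study's methods, females were 4 weeks old on a C57BL/6J background and were primed with pregnant mare serum gonadotropin (PMSG) 2 days before collection. The cumulus cells were then removed, and GV oocytes were held in medium with dibutyryl-cAMP, which prevents the resumption of meiosis. Each group had 4 libraries of 100 pooled oocytes, and nothing says whether the pools came from separate animals, so p-values measure only the spread between these libraries.

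Aurora kinases are serine/threonine kinases of cell division. Aurora A acts at spindle poles, where TPX2 binds and activates it, and Aurora B and Aurora C act on chromosomes as the catalytic subunit of the chromosomal passenger complex, held by the scaffold INCENP together with survivin (Birc5) and borealin (Cdca8). Aurora C is largely restricted to germ cells and early embryos and takes the place of Aurora B in much of female meiosis, while the CCR4-NOT complex, whose catalytic subunits include CNOT7 and CNOT8, shortens the poly(A) tails of mRNAs. A fully grown GV oocyte is transcriptionally quiescent and carries these transcripts as maternal mRNA, which may be stored with a short tail and translated later through the cytoplasmic polyadenylation element (CPE) in the 3′UTR.

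The annotated 3′UTRs of the members were searched on the transcript strand for the CPE hexamer TTTTAT, the letters through which a CPEB protein can hold an mRNA for later polyadenylation. The sites of the kinases and of Tpx2 are shown with their flanks, 5′ to 3′ from GENCODE vM21 transcripts on GRCm38, with the hexamer in capitals. They lie at chr2:172356237-172356266 on the minus strand (Aurka), chr11:69051616-69051645 on the plus strand (Aurkb), chr7:7003036-7003065 on the plus strand (Aurkc), and chr2:152894482-152894511 and chr2:152894608-152894637 on the plus strand (Tpx2).
Aurka: ttaaaggctattTTTTATgttggagttctg
Aurkb: tgaagaacaacaTTTTATaataaagtctta
Aurkc: gcttgttttctcTTTTATgaagtgatgtta
Tpx2 first site: ctatggtgggcaTTTTATacctacgtgata
Tpx2 second site: gagatttcttgaTTTTATatatttggtttt
In Aurkb the hexamer was followed directly by AATAAA, the polyadenylation signal. In Aurkc the variant signal ATTAAA began 18 bases after the first base of the hexamer. In the longest 3′UTR of Aurka the only AATAAA or ATTAAA lay upstream of the hexamer. In that of Tpx2 the nearest also lay upstream of both hexamers. An ATTAAA lay farther off downstream of them, at position 1615 of 1630 bases.

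In the longest annotated 3′UTR, 5 of 7 members held the hexamer, against 56.2% of 15113 tested genes with a 3′UTR of at least 50 bases, and against 52.4% of the 11876 genes whose 3′UTR had a length within the members' range of 146 to 2936 bases. Aurka, Aurkb and Aurkc held 1 copy each, Birc5 and Tpx2 held 2 each, and none was found in Incenp or Cdca8. Birc5 held its copies only in the longer annotated 3′UTR, and with the shortest annotated 3′UTR the count was 4 of 7 members against 39.4% of genes. Which of these 3′UTRs oocytes use was not measured, and a match of these letters is not evidence that a factor binds there. The hexamer did not separate the members by direction, since it was present in Aurka, Aurkb, Birc5 and Tpx2, which were downregulated, and in Aurkc, which was not called.

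Total counts ran from 14943671 to 44092144 in Zp3-Cre libraries and from 8639444 to 26784110 in CNOT7&8 KO libraries. Levels are given as CPM, counts relative to library sizes scaled by edgeR's TMM factors, which lay between 0.849 and 0.943 in control and between 1.07 and 1.14 in KO libraries, so that the 2 groups were separated by the scaling itself. Control replicate 1 and KO replicate 4, the deepest library of each group, deviated from their group means together (r = 0.37 across genes). Calls of the members, the targeted genes and, among the genes around the kinases, Tacc3, Ttk, Rcc2, Kif23 and Ppp6r3 were also examined without them. Other single genes are given with all libraries only. The targeted genes were lower, with Cnot8 at 21.0% of control (log2 fold change -2.25 ± 0.12 SE) and Cnot7 at 77.1% (-0.38 ± 0.11 SE). The counts cover whole genes, including any exons that the deletion leaves, so the level of Cnot7 checks the labels only weakly. With libraries scaled by their size alone, Cnot7 was at -0.09 and was not called (edgeR's quasi-likelihood test, adjusted p = 0.383). Differences were called at a Benjamini-Hochberg adjusted p of at most 0.05 in edgeR's quasi-likelihood test over all 19241 genes.

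Of the 7 members, 5 were downregulated and 0 were upregulated, against 24.1% of all tested genes that were lower and 31.2% that were higher. With library sizes alone, 2 members were lower and 2 higher, against 2620 and 7742 of the 19241 genes. With TMM factors from genes of at least 10 CPM, 2 members were lower and 2 higher too, against 2863 and 7589 genes. The members' median log2 fold change was -0.38, against 0.12 over all tested genes. Of the members, 5 averaged 100 CPM or more, and among the 2412 genes at that level 55.3% were lower and 8.33% higher, with a median of -0.37. The members' median thus lay beside that of abundant genes. With a fold change of at least 2 required, 0 members were called in either direction, against 6.56% of genes lower and 23.8% higher. In 5 members every KO library lay below every control library, as in 21.4% of genes, and in 0 members every KO library lay above, as in 27% of genes. Each library was pooled from 100 oocytes, but CPM are relative to the library and do not give the RNA per oocyte. In bulk samples, fewer contributing cells and less RNA per cell cannot be told apart.

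**Figure D1:**
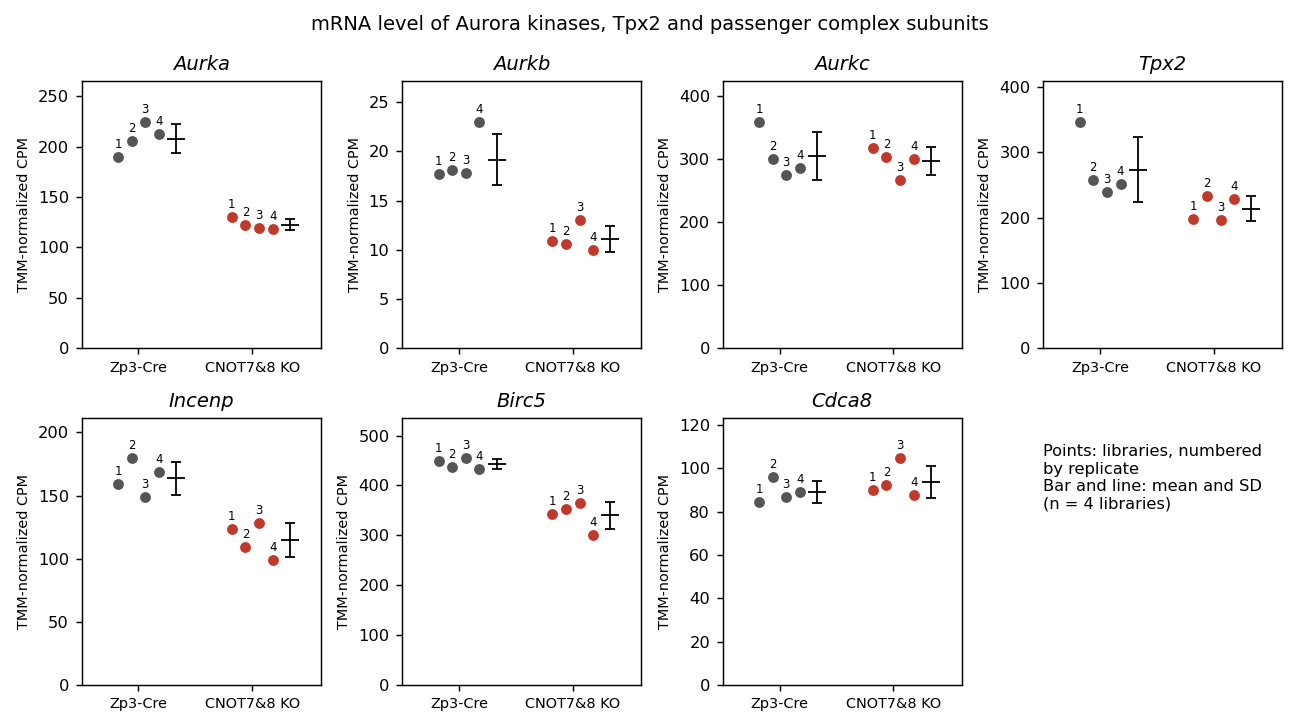
Level of each member in every library (vertical axes, TMM-normalized CPM from 0; points numbered by replicate; bar and line beside them, mean and SD of 4 libraries), Zp3-Cre in grey and CNOT7&8 KO in red. Red points lie below grey points for Aurka, Aurkb, Tpx2, Incenp and Birc5 and among them for Aurkc and Cdca8.

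Aurka, the spindle pole kinase (2:172356190-172370535, minus strand), had 190, 206, 225 and 213 CPM in control replicates 1 to 4 and 130, 122, 119 and 118 CPM in the KO replicates. Every KO library lay well below every control library, and the KO libraries were the closer to each other. The mean fell from 208 ± 14.7 to 122.5 ± 5.53 CPM (SD, n = 4 each), a log2 fold change of -0.76 ± 0.10 SE (edgeR's quasi-likelihood test, adjusted p = 4.81e-05). Its decrease was called under each of the 18 alternative settings, with log2 fold changes from -0.81 to -0.49.

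Aurkb, the catalytic subunit of the passenger complex in mitosis (11:69045647-69051664, plus strand), was the member with the fewest counts, from 100 to 661 in a library. It had 17.7, 18.2, 17.8 and 23.0 CPM in control libraries and 10.9, 10.5, 13.01 and 10.01 CPM in KO libraries. The groups did not overlap, with control replicate 4 standing above the other controls. The mean fell from 19.1 ± 2.59 to 11.1 ± 1.32 CPM (SD, n = 4 each), a log2 fold change of -0.78 ± 0.15 SE (edgeR's quasi-likelihood test, adjusted p = 0.00105). Without control replicate 4 the log2 fold change was -0.69, and the decrease was called under each of the 18 alternative settings.

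Aurkc, the meiotic partner of INCENP (7:6995300-7003091, plus strand), had 359, 299, 275 and 286 CPM in control libraries and 318, 303, 266 and 299 CPM in KO libraries. The groups overlapped throughout, and the lowest library of all was a KO and the highest a control library. The means were 305 ± 37.6 and 297 ± 21.7 CPM (SD, n = 4 each), and the log2 fold change of -0.04 had a 95% interval from -0.28 to 0.20 (edgeR's quasi-likelihood test, adjusted p = 0.780). Its sign depended on the scaling, as given below.

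Tpx2, which activates Aurora A and targets it to spindle microtubules (2:152847964-152895321, plus strand), had 347, 257, 240 and 251 CPM in control libraries and 198, 233, 196 and 228 CPM in KO libraries. The groups did not overlap, but the gap between the lowest control and the highest KO library was narrow, and control replicate 1 stood far above the rest. The mean fell from 274 ± 49.4 to 214 ± 19.3 CPM (SD, n = 4 each), a log2 fold change of -0.36 ± 0.13 SE (edgeR's quasi-likelihood test, adjusted p = 0.0357). This call was lost under 8 of the 18 alternative settings. Without control replicate 1 the log2 fold change was -0.22 with an adjusted p of 0.0598 in the same edgeR test, and it was also lost without KO replicate 1 (adjusted p = 0.0779) or KO replicate 3 (0.0659). Without both control replicate 1 and KO replicate 4, an alternative chosen after seeing the data, the log2 fold change was -0.25 with an adjusted p of 0.0236.

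Incenp, the scaffold that binds the kinase (19:9872296-9899551, minus strand), had 159, 179, 149 and 168 CPM in control libraries and 124, 109, 128 and 99.0 CPM in KO libraries. Every KO library lay below every control library. The mean fell from 164 ± 13.1 to 115 ± 13.5 CPM (SD, n = 4 each), a log2 fold change of -0.51 ± 0.12 SE (edgeR's quasi-likelihood test, adjusted p = 0.00257).

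Birc5, which encodes survivin, the subunit that docks the complex on phosphorylated histone H3 (11:117849251-117855743, plus strand), had 448, 437, 454 and 432 CPM in control libraries and 343, 352, 364 and 301 CPM in KO libraries. The control libraries were tightly grouped and lay above all KO libraries. The mean fell from 443 ± 9.86 to 340 ± 27.4 CPM (SD, n = 4 each), a log2 fold change of -0.38 ± 0.10 SE (edgeR's quasi-likelihood test, adjusted p = 0.00499).

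Cdca8, which encodes borealin, a subunit of the centromere-targeting module with survivin (4:124918465-124939311, minus strand), had 84.3, 95.8, 86.7 and 89.3 CPM in control libraries and 90.0, 92.4, 105 and 87.7 CPM in KO libraries. The groups overlapped, and KO replicate 3 was the highest of all. The means were 89.0 ± 4.98 and 93.6 ± 7.53 CPM (SD, n = 4 each), with a log2 fold change of 0.07 and a 95% interval from -0.15 to 0.30 (edgeR's quasi-likelihood test, adjusted p = 0.573). Cdca8 overlaps the gene 9930104L06Rik on the opposite strand, which had 149 to 927 counts in a library, and the strand setting of the counting is not given in the sources used here.

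The scaling of the libraries decided part of these calls. With library sizes alone, the median gene's log2 fold change shifted up by 0.29, and with TMM factors computed on genes of at least 10 CPM by 0.25. Aurka and Aurkb were downregulated in both (-0.49 and -0.50 with library sizes alone, -0.52 and -0.54 with the other factors). Incenp was then at -0.23 and -0.26, Birc5 at -0.10 and -0.13, and Tpx2 at -0.07 and -0.10, and none of these 3 was called. Aurkc was then higher in KO oocytes, at 0.25 and 0.22, with adjusted p-values of 0.0314 and 0.0404 in edgeR's quasi-likelihood test, and so was Cdca8, at 0.36 and 0.32, with adjusted p-values of 0.0163 and 0.0282. Upper quartile scaling, with a median shift of 0.10, kept the calls of Aurka, Aurkb, Incenp and Birc5 and lost that of Tpx2 (edgeR's quasi-likelihood test, adjusted p = 0.106). A scaling shifts all members nearly alike, so that their order was kept: Aurka and Aurkb had the most negative changes, and Aurkc and Cdca8 the least negative or positive ones.

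**Figure D2:**
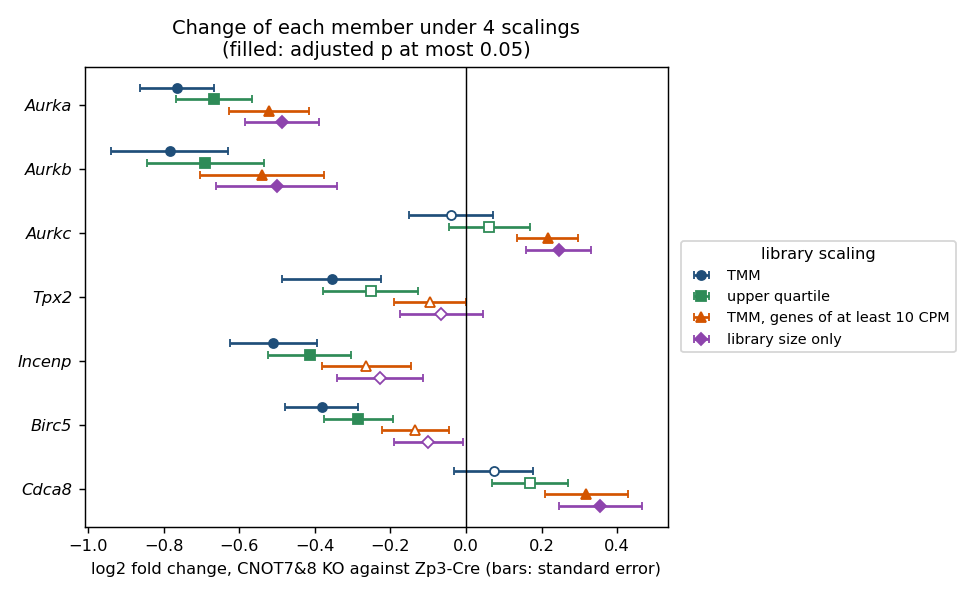
Log2 fold change of each member, CNOT7&8 KO against Zp3-Cre (horizontal axis; bars, standard error; filled, adjusted p at most 0.05 in edgeR's quasi-likelihood test), under 4 scalings of the library sizes. Aurka and Aurkb stay filled and left of 0 in all 4, while Incenp, Birc5 and Tpx2 move towards 0 and Aurkc and Cdca8 move from near 0 to 0.25 and 0.36 when libraries are scaled by size alone.

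Ratios between members within a library do not depend on the scaling, and 6 of them were compared with an exact two-sided permutation test over the 70 assignments of the 8 libraries, whose smallest p is 0.0286. The log2 ratio of Aurkc to Aurka counts was 0.92, 0.54, 0.29 and 0.43 in control libraries and 1.28, 1.31, 1.16 and 1.34 in KO libraries, with no overlap. On the linear scale, Aurkc had 1.46 counts for each Aurka count in control and 2.42 in KO oocytes, a difference of 0.73 in log2 (exact permutation p = 0.0286, adjusted over the 6 ratios 0.0571). The ratio of Aurkb to Aurkc differed by -0.74 in log2 (exact permutation p = 0.0286, adjusted 0.0571), again without overlap between the groups. The ratio of Aurkb to Aurka differed by only -0.01, with overlapping groups (exact permutation p = 0.886, adjusted 0.886).

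Within the passenger complex, the log2 ratio of Cdca8 to its scaffold Incenp was -0.91, -0.90, -0.78 and -0.91 in control libraries and -0.46, -0.24, -0.30 and -0.18 in KO libraries. No KO library reached down to a control library, and the difference was 0.59 in log2 (exact permutation p = 0.0286, adjusted 0.0571). Birc5 to Incenp differed by 0.13, with overlapping groups (exact permutation p = 0.229, adjusted 0.274). Tpx2 to Aurka differed by 0.42, with overlap through control replicate 1 (exact permutation p = 0.0857, adjusted 0.129). Thus 3 ratios reached the smallest p this design allows, and after adjustment over the 6 ratios none was at or below 0.05. With 3 of the 6 at the smallest p, the adjusted p could not be lower than 0.0571 in this exact permutation test. The adjustment therefore could not decide on them. Aurkc/Aurka and Aurkb/Aurkc share Aurkc, so they are not separate results.

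**Figure D3:**
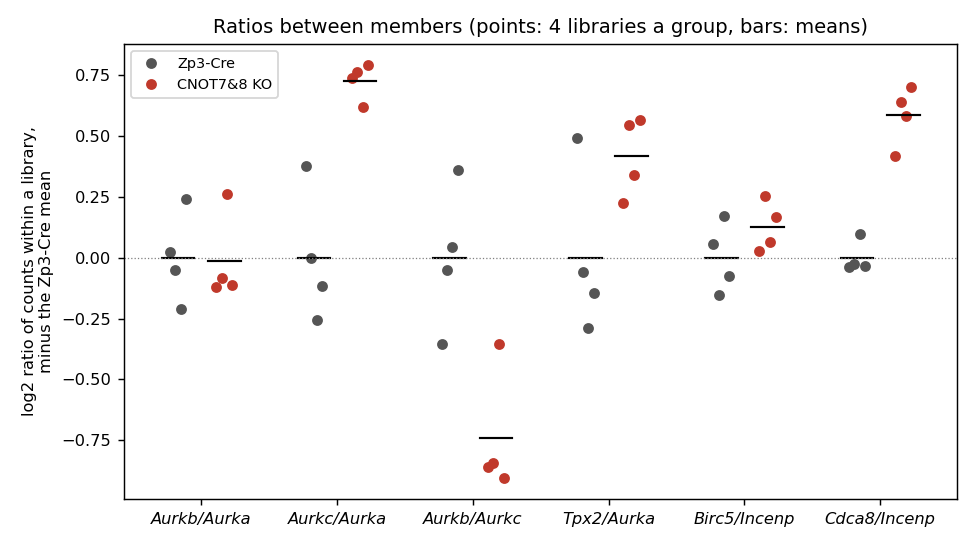
Log2 ratio of counts between 2 members within each library, minus the Zp3-Cre mean of that ratio (vertical axis; points, 4 libraries a group; bars, group means), Zp3-Cre in grey and CNOT7&8 KO in red. The groups are apart for Aurkc/Aurka, Aurkb/Aurkc and Cdca8/Incenp and overlap for Aurkb/Aurka, Tpx2/Aurka and Birc5/Incenp.

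Levels were compared between genes as TMM-normalized CPM per kb of the longest annotated transcript. In control oocytes Aurkc was highest at 217 ± 26.8 CPM per kb, followed by Birc5 at 133 ± 2.96, Aurka at 109 ± 7.73, Tpx2 at 62.7 ± 11.3, Cdca8 at 54.7 ± 3.06, Incenp at 50.6 ± 4.05 and Aurkb at 9.82 ± 1.33 (SD, n = 4). Neighbours in this order did not overlap between libraries, except Tpx2 with Cdca8 and Cdca8 with Incenp. In CNOT7&8 KO oocytes Aurka, at 64.3 ± 2.91 CPM per kb, overlapped with Cdca8 at 57.6 ± 4.63, and Cdca8 lay above Tpx2, at 49.0 ± 4.42, with no overlap. The place of Birc5 depended on its transcript length, since with the principal transcript of 947 bases in place of 3334 bases it would be at 468 CPM per kb in control and 359 in KO oocytes, above Aurkc.

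**Figure D4:**
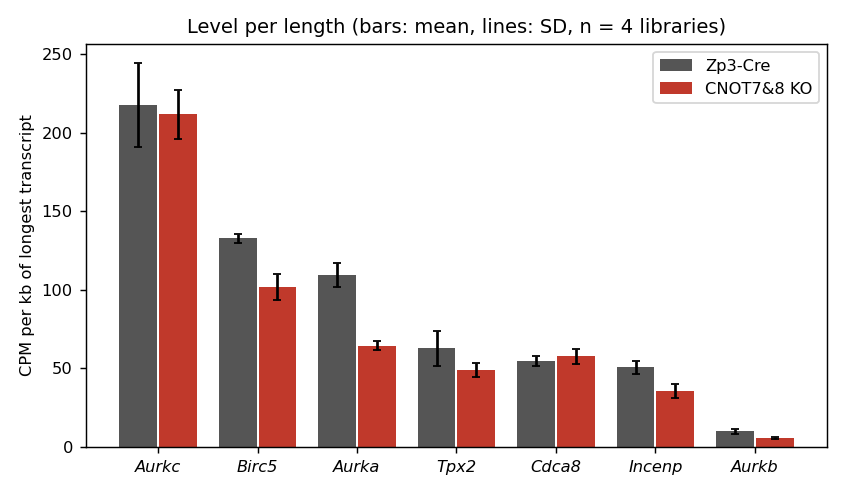
Level per length of each member (vertical axis, TMM-normalized CPM per kb of longest transcript, from 0; bars, mean and lines, SD of 4 libraries), Zp3-Cre in grey and CNOT7&8 KO in red, in the order of the control levels. At these lengths Aurkc stands highest in both groups and Aurkb lowest, and Aurka has the widest step down, from 109 to 64.3. With its principal transcript Birc5 would step from 468 to 359.

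As a share of the 3 kinase transcripts per length, Aurkc made up 70.2%, 64.6%, 60.7% and 62.3% in control libraries and 75.4%, 75.6%, 73.3% and 76.0% in KO libraries, which were all higher. Aurka made up 32.6% ± 3.91 in control and 22.9% ± 0.860 in KO oocytes (SD, n = 4), again without overlap. Aurkb made up 2.93% ± 0.476 and 2.04% ± 0.360, and these groups overlapped. With Aurkb this low, the shares of Aurkc and Aurka largely restate their ratio. Reads that the kinases could share through similar sequence were not examined.

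The genes whose log2 CPM followed each kinase most closely over the 8 libraries were taken from the 8725 genes that averaged 10 CPM or more. For Aurka these were 2700062C07Rik (Pearson's r = 0.996), Stoml2 (0.995) and Smim20 (0.994). For Aurkb they were Vps53 (0.987), Aldh1l1 (0.986) and Zkscan17 (0.982), and for Aurkc Slc35b4 (0.975), Xlr3a (0.972) and Fancd2 (0.968). These 8 points share 2 groups of 4 libraries and the same scaling factors, so that a gene that differs between the groups as the kinase does has a high r.

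The genes around the kinases were examined in a list of 40, of which 38 were tested. Of these 38, 20 were downregulated (52.6%, against 24.1% of all genes) and 2 were upregulated (5.26%, against 31.2%), and the median log2 fold change was -0.41. Of the 21 that averaged 100 CPM or more, 13 were lower, against 55.3% of all genes at that level, and of the other 17, 7 were lower, against 19.6% of the genes below it. With library sizes alone, 13 were lower and 8 higher, against 2620 and 7742 of the 19241 genes.

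Among cofactors and targets of Aurora A, 7 of 12 were downregulated (Tacc3, Ckap5, Numa1, Plk1, Nedd9, Cep192 and Cpeb1) and 1, the phosphatase Cdc25b, was upregulated, with a median of -0.54. These shares were 58.3% and 8.33%, against 24.1% and 31.2% of all tested genes. Among all genes averaging 100 CPM or more they were 55.3% and 8.33%. Tacc3, which Aurora A phosphorylates to recruit it to spindle microtubules, was the most abundant, and it fell from 1109 ± 211 to 603 ± 66.8 CPM (SD, n = 4 each; log2 fold change -0.88 ± 0.14 SE; edgeR's quasi-likelihood test, adjusted p = 0.000209). Cpeb1, which encodes the protein that binds CPEs, fell from 323 ± 82.8 to 221 ± 24.8 CPM, although the groups overlapped (log2 fold change -0.55 ± 0.16 SE; edgeR's quasi-likelihood test, adjusted p = 0.0129). Control replicate 1 had 438 CPM of Cpeb1, and the other control libraries 240 to 309 CPM. Cpeb1 was singled out after its values were seen, as were the other names here that neither a 2-fold change nor the highest level per length selected. Their single calls under other scalings or with a library left out are not given.

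Among genes that recruit the passenger complex to chromatin or the midzone, 5 of 7 were downregulated (Haspin, Bub1, Sgo1, Kif20a and Ttk) and 1, Rcc2, was upregulated, with a median of -0.47. The share lower was 71.4%, against 24.1% of all tested genes and 55.3% of those averaging 100 CPM or more. The share higher was 14.3%, against 31.2% and 8.33%. Haspin and Bub1 encode kinases that place the histone marks on which the complex docks, and Sgo1 encodes a shugoshin that reads the Bub1 mark. The other shugoshin gene of the list, Sgo2a, had means of 156 and 153 CPM. It was not called (log2 fold change -0.03; edgeR's quasi-likelihood test, adjusted p = 0.867). Ttk, the spindle checkpoint kinase, fell from 549 ± 63.0 to 265 ± 14.1 CPM (SD, n = 4 each; log2 fold change -1.05 ± 0.11 SE; edgeR's quasi-likelihood test, adjusted p = 8.63e-06). Rcc2, which encodes a protein that associates with centromeres and the spindle midzone, rose from 77.1 ± 15.9 to 171 ± 51.4 CPM (log2 fold change 1.15 ± 0.21 SE; edgeR's quasi-likelihood test, adjusted p = 0.000582). Ttk and Rcc2 were the 2 genes of the list past 2-fold, and their directions and calls held under every scaling tried. However, Ttk was short of 2-fold with library sizes alone (-0.76), TMM on genes of at least 10 CPM (-0.79) and upper quartile scaling (-0.95). It was also short of 2-fold without control replicate 1 (-0.97) or KO replicate 3 (-0.99), as was Rcc2 without KO replicate 3 (0.96).

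Among substrates of the complex, 4 of 9 tested were downregulated (Kif2c, Dsn1, Kif23 and Racgap1) and 0 upregulated, with a median of -0.30. The share lower was 44.4%, against 24.1% of all tested genes and 55.3% of those averaging 100 CPM or more. The share higher was 0%, against 31.2% and 8.33%. Kif23, a kinesin of the central spindle, fell from 630 ± 84.4 to 431 ± 28.6 CPM (SD, n = 4 each; log2 fold change -0.55 ± 0.11 SE; edgeR's quasi-likelihood test, adjusted p = 0.00147). Its partner in the centralspindlin complex, Racgap1, was at -0.66. Kif2b and the cohesin subunit gene Rec8 did not pass the filter, with at most 2 counts in any library. Among phosphatases that oppose the kinases and factors that remove them, 4 of 10 were downregulated (Ppp1ca, Cdca2, Ppp2r5c and Cdc20) and 0 upregulated, with a median of -0.15. This share of 40% stands against 24.1% of all tested genes, 55.3% of those averaging 100 CPM or more and 19.6% of those below it. Most of this group averaged below 100 CPM. The share higher of 0% stands against 31.2% of all tested genes. Ppp6r3, a regulatory subunit of the phosphatase that acts on Aurora A, was the most abundant, with 230.4 ± 36.7 and 228 ± 11.7 CPM (SD, n = 4 each), and was not called (edgeR's quasi-likelihood test, adjusted p = 0.930), but it was called higher with library sizes alone (0.28, adjusted p = 0.0314) and with TMM on genes of at least 10 CPM (0.25, adjusted p = 0.0251).

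**Figure D5:**
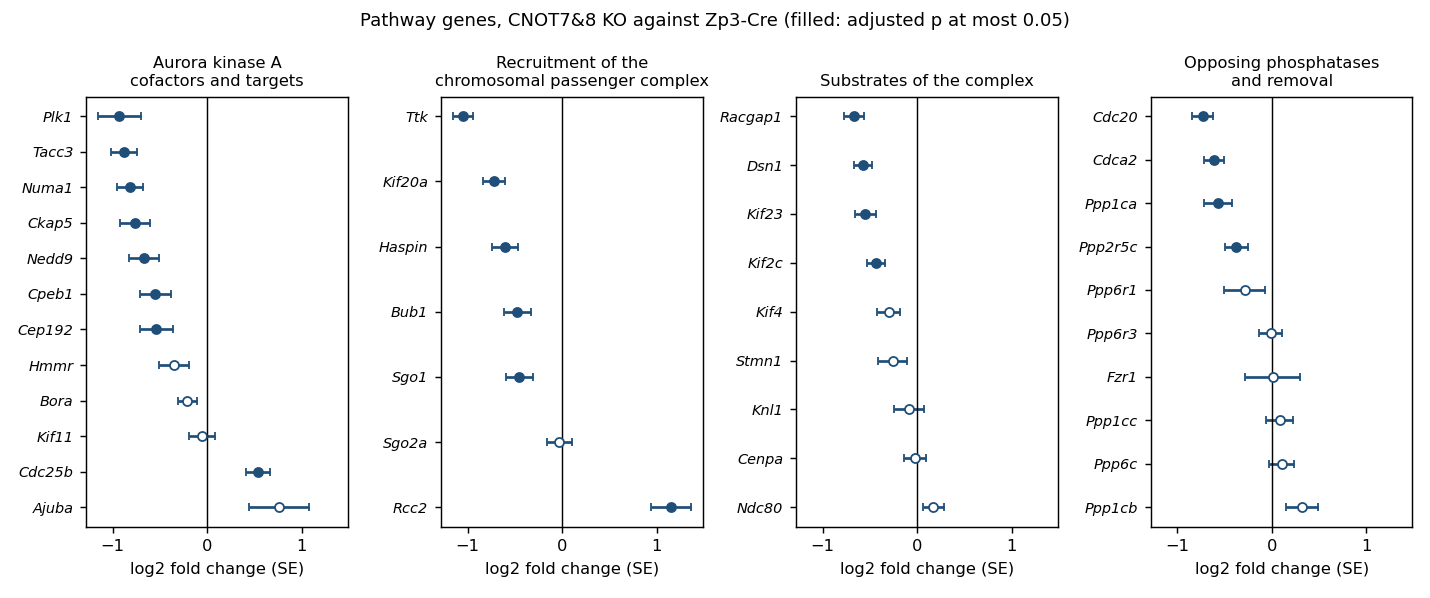
Log2 fold change of the 38 tested pathway genes, CNOT7&8 KO against Zp3-Cre (horizontal axes; bars, standard error; filled, adjusted p at most 0.05 in edgeR's quasi-likelihood test), in 4 groups by role. Filled points lie left of 0 for 20 genes and right of 0 for Cdc25b and Rcc2, under TMM scaling.

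The labelled cell type was present by its markers, with all 12 oocyte marker genes tested and a summed level of 18263 to 21123 CPM in control and 15339 to 17857 CPM in KO libraries. Of these 12, 6 were lower and 2 higher in KO oocytes, with Zar1 at 54.8% and Ddx4 at 194% of control. Over all tested genes 24.1% were lower and 31.2% higher, and among those averaging 100 CPM or more 55.3% and 8.33%. Most of the 12 reached that level. Markers listed for granulosa or cumulus cells, the somatic neighbours of the oocyte, summed to 130 to 175 CPM in control and 219 to 278 CPM in KO libraries. Of the 11 tested of 12, 6 were higher and 1 lower in KO oocytes, against 31.2% and 24.1% of all tested genes. Foxl2 did not pass the filter, with at most 3 counts in any library. Group means rose from 56.6 to 122 CPM for Nr5a2 and from 16.004 to 43.4 CPM for Kitl. Cyp19a1 fell from 58.4 to 31.3 CPM. Inha had 38.4, 34.1, 26.5 and 4.77 CPM in KO replicates 1 to 4 (control mean 6.86). Inhba and Fst also lay above their control means (2.49 and 1.58 CPM) except in KO replicate 4, at 1.63 and 1.53 CPM. In that replicate Nr5a2, Kitl and Fshr stayed above every control library, at 132, 40.1 and 3.34 CPM. Theca and stroma markers summed to 2.18 to 4.15 and 2.10 to 3.90 CPM. In KO oocytes 1 of 5 tested was lower, against 24.1% of all tested genes. Markers of blood, immune or vessel cells summed to 88.3 to 109 CPM in control and 78.7 to 91.6 CPM in KO libraries, most of it Pecam1 at 96.2 and 82.2 CPM. Of these 6, the hemoglobin genes Hbb-bs and Hba-a1 were at 0 counts in all libraries. The leukocyte genes Ptprc (0.122 to 0.615 CPM) and Cd68 (1.204 to 3.245 CPM) were higher in KO oocytes. They were 2 of the 4 tested, against 31.2% of all tested genes. The part of these marker differences, and of the lower oocyte marker sum, in the members' values was not tested.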

How the data were processed

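RNA-seq of GV oocytes was analyzed in 8 libraries, 4 of Zp3-Cre and 4 of CNOT7&8 KO oocytes, each from 100 oocytes, grouped by the deposited labels. Using nf-core/rnaseq, the authors mapped read pairs to GRCm38 with STAR 2.6.1d (per the submitters' processing notes) and deposited raw counts per gene, without normalization. The labels name a stranded total RNA kit with ribosomal RNA removal, and the paper a stranded mRNA kit that it describes as depletion-based. If mRNA was instead selected by its poly(A) tail, counts could also vary with tail length, which the deleted deadenylases act on, and this was not tested. Beyond the pipeline, the counting tool, annotation and strand setting are not given in the sources used here.

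Genes that reached 0.2 CPM (unscaled library size) in no fewer than 2 libraries entered the tests in R 4.3.3 with edgeR 4.0.16 (TMM, quasi-likelihood test, Benjamini-Hochberg adjustment over 19241 genes). The exact test named in the study's methods and DESeq2 1.42.0 were alternatives, with other scalings, filters, a replicate block and each library left out. Scripts were tested on simulated data. Ratios used a prior count of 2. Gene lengths, positions and 3′UTRs came from GENCODE vM21 (98.2% of identifiers found), and list genes under older symbols were matched by its identifiers. In the shallowest library 3 counts make 0.326 TMM-normalized CPM, a floor that covers counting error only.

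Named were the members, list genes called with a 2-fold change, the most abundant gene per length of each group of the list, the 3 genes most correlated with each kinase, and the targeted genes. The members and lists were chosen with earlier results of these data known. Proteins were not analysed here. Figures were made with Python 3.11.15 and matplotlib 3.10.9.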

Additional observations from a re-analysis of the deposited data

Results flagged for a closer look

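The level of Tpx2 in control replicate 1 was 347 CPM, while the other 3 control libraries had 240 to 257 CPM, so that its gap exceeded Dixon's 95% critical value for 4 libraries. Aurkb in control replicate 4 was flagged in the same way, at 23.0 CPM against 17.7 to 18.2 CPM in the other 3. Over the 7 members, 14 groups of 4 libraries were examined and 2 were flagged, where chance flags about 0.7.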

How the results depend on the processing

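Aurka and Aurkb kept their decrease and their call under all 18 alternative settings, and Incenp and Birc5 under 16 of 18. A 2-fold threshold left 0 members lower, and 1 pathway gene lower and 1 higher. Library sizes alone gave 2 members lower and 2 higher, 13 pathway genes lower and 8 higher, and 2620 genes lower in all. TMM on genes of at least 10 CPM gave 2 and 2 members, 8 pathway genes higher and 2863 genes lower in all, and upper quartile scaling 5 pathway genes higher. The cause was not tested. The sign of Aurkc, not called with TMM, turned with library sizes (0.25), upper quartile (0.062), TMM on genes of at least 10 CPM (0.22), the 1 CPM filter (0.032) and both deep libraries left out (0.044), and ranged from -0.086 to 0.049 with 1 library left out. Ppp6r3 turned under the same settings (0.28, 0.089, 0.25, 0.058 and 0.073, called at 0.28 and 0.25), with DESeq2 (0.0026), RLE factors (0.0028) and no filter (0.0091), and ranged from -0.055 to 0.11 with 1 library left out. With 1 library left out, log2 differences of ratios ranged from -0.10 to 0.067 for Aurkb/Aurka, 0.64 to 0.85 for Aurkc/Aurka, -0.87 to -0.62 for Aurkb/Aurkc and 0.32 to 0.58 for Tpx2/Aurka (0.58 without control replicate 1, exact permutation p = 0.0286). With 35 assignments of 7 libraries, p for Aurkc/Aurka and Aurkb/Aurkc was 0.0286 or 0.0571 (exact permutation test).

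Replicate numbers did not pair the libraries, since same-numbered deviations had r of -0.07, -0.04, 0.11 and -0.12, and control replicate 1 was closest to KO replicate 4. With the replicate block, 4 members were lower (Tpx2 lost, at -0.34 with edgeR's adjusted p = 0.0674), and 4201 genes were lower and 5511 higher in all, against 4631 and 5997 without it. Depth limits mainly Aurkb, with 100 counts in the shallowest library.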
